A study of Mus musculus with 15 samples.

Results

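The genes described here are 9 key genes of hepatic glucose handling, namely the glucose transporter gene Slc2a2, the glycolytic genes Hk2, Pfkl, Pklr and Pkm, and the gluconeogenic genes Pcx, Pck1, Fbp1 and G6pc. They were found by symbol among the array rows that carry 1 gene symbol, with the brightest transcript cluster (the probes along a gene that are combined into 1 value) standing for each gene. All 9 members were found among 19938 genes. Liver total RNA of male C57BL/6J mice was measured on 15 GeneChip Mouse Gene 1.0 ST arrays in 5 groups of 3. The mice were fed from week 8, and the groups were Ath+HF+BCAA 68w and Ath+HF 68w after 60 weeks of diet, then Ath+HF+BCAA 38w, Ath+HF 38w and basal diet 38w after 30 weeks. Ath+HF is an atherogenic and high-fat diet, and the BCAA diet was the same food with 3% branched-chain amino acids. No basal diet arrays of 68w were used here, so age, duration of feeding and processing batch cannot be told apart between 68w and 38w. The sources used here do not give the fasting state of the mice at death.

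The liver takes up glucose after a meal and releases it in fasting. Glut2, the product of Slc2a2, lets glucose pass the hepatocyte membrane both ways. Glycolysis runs from glucose to pyruvate through the irreversible steps of hexokinase, phosphofructokinase and pyruvate kinase, and gluconeogenesis goes round these steps with pyruvate carboxylase, PEP carboxykinase, fructose bisphosphatase and glucose-6-phosphatase. Adult hepatocytes rely on the liver pyruvate kinase of Pklr, while Hk2 and Pkm are the forms of muscle, of proliferating cells and of many immune and stromal cells. Insulin lowers and glucagon raises transcription of the gluconeogenic genes.

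All values are log2 signals after RMA, the normalization the authors applied, so a difference of 1 is a doubling of the signal, and the brightness of different genes was not compared. A gene was called higher or lower when the adjusted p from limma was under 0.05, after Benjamini-Hochberg adjustment over all 19938 genes in 1 fit of the 15 arrays. The sources do not state whether every array came from its own mouse. A p-value here sets a difference between groups against the spread of arrays within groups, part of which may be technical. Array medians lay between 6.91 and 7.16. They were 7.095 to 7.156 in the arrays of 68w and 6.908 to 7.043 in those of 38w, without overlap.

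Every direction at 68w rests on the labels of the arrays. The mean log2 signal of 17 macrophage markers was 10.66 to 10.99 with the label Ath+HF+BCAA 68w and 8.29 to 8.40 with the label Ath+HF 68w, against 9.89 to 10.38 in Ath+HF+BCAA 38w, 10.10 to 10.35 in Ath+HF 38w and 8.86 to 8.95 in basal diet 38w. The arrays labelled Ath+HF 68w thus lay below the basal diet arrays in this mean. Of the 17 markers 9 were called lower there than in basal diet 38w, 2 were called higher and 6 were not called. Stellate cell and fibroblast markers (10 genes) averaged 9.51 to 9.55 with the label Ath+HF+BCAA 68w and 8.42 to 8.59 with the label Ath+HF 68w, against 8.43 to 8.54 in basal diet 38w. As labelled, the direction of these fibroblast markers between the older groups is opposite to the one the study describes for the diets. Whether the labels of the 68w groups were exchanged was not tested. Mean values over both 68w groups do not depend on it. Markers of hepatocytes were bright in every group, and their 13 genes averaged 13.18 to 13.28 in Ath+HF+BCAA 68w, 13.40 to 13.43 in Ath+HF 68w and 13.32 to 13.36 in basal diet 38w. In bulk liver RNA, fewer cells of a type and less RNA per cell cannot be told apart.

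Between the 68w groups, all 4 gluconeogenic genes were lower under the label Ath+HF+BCAA 68w, and 2 genes of the glycolytic side, Hk2 and Pkm, were higher. The calls of Pck1 and Pcx were lost under some of the alternatives given below. At the study's limits (a fold over 1.5 and P under 0.005) 4 members were called, with 2 higher and only G6pc and Fbp1 lower. G6pc showed the largest difference of the 9, 5.32-fold lower. Pfkl, Pklr and Slc2a2 were not called. Of the 9 members 4 were called lower, where 16.4% of all genes were, and 2 were called higher, where 19.8% of all genes were, so the share of higher members was close to that of all genes. The median log2 difference was 0.13 over the members and -0.09 over all genes.

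**Figure D1:**
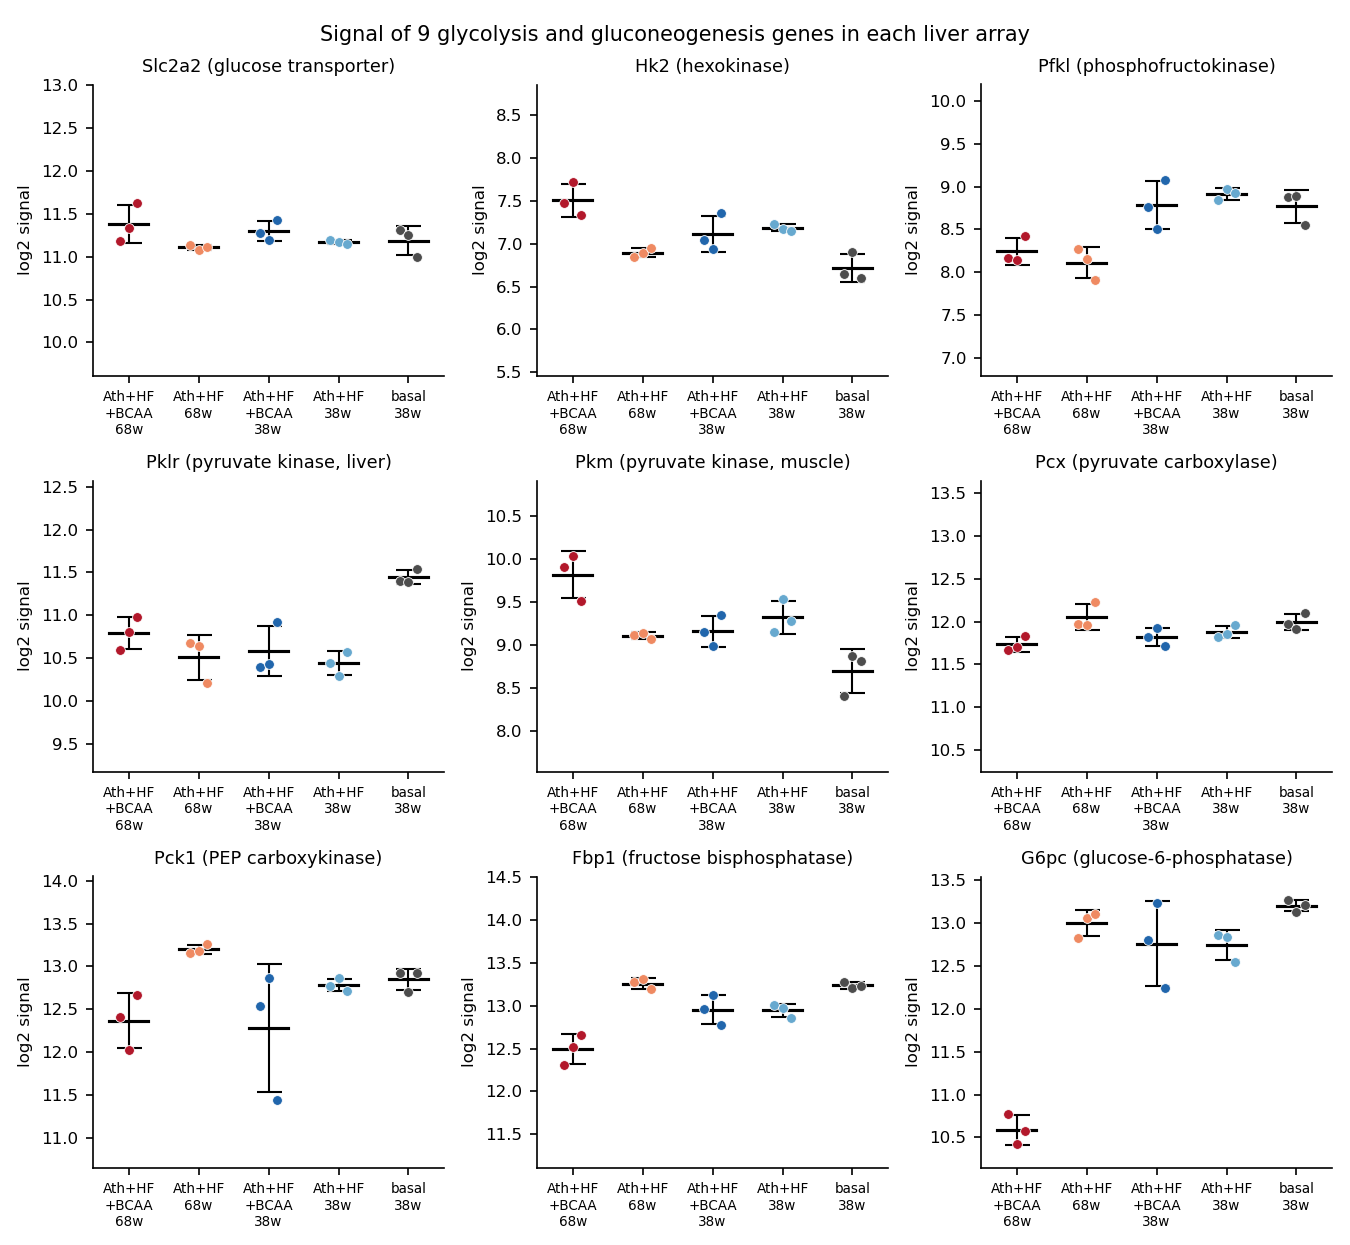
Log2 signal (vertical axis, the same span in every panel) of the 9 genes in each of the 15 arrays, by group along the horizontal axis. Points are arrays, the horizontal bar is the group mean and the whiskers are 1 SD (n = 3). G6pc stood between 10.42 and 10.77 in Ath+HF+BCAA 68w, below every other array, and Pklr stood above all other arrays in the basal diet group.

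G6pc encodes the catalytic subunit of glucose-6-phosphatase, which frees glucose in the last step of gluconeogenesis and of glycogen breakdown (chr11:101367716-101377903, GRCm38.p6). Its signal was 10.77, 10.42 and 10.58 in Ath+HF+BCAA 68w, 12.83, 13.06 and 13.11 in Ath+HF 68w, 12.81, 13.23 and 12.24 in Ath+HF+BCAA 38w, 12.87, 12.83 and 12.55 in Ath+HF 38w, and 13.27, 13.13 and 13.21 in basal diet 38w. The 3 arrays of Ath+HF+BCAA 68w were the lowest of the 15 and overlapped no other group. G6pc averaged 10.59 ± 0.17 in Ath+HF+BCAA 68w and 13.00 ± 0.15 in Ath+HF 68w (SD, n = 3 each), a log2 difference of -2.41 (standard error 0.19, limma adjusted p = 9.53e-08). Against basal diet 38w the difference was -2.62 in Ath+HF+BCAA 68w, or 6.13-fold (standard error 0.19, limma adjusted p = 4.51e-08). In Ath+HF 68w it was -0.20 against basal diet 38w, with a 95% interval of -0.60 to 0.19.

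Fbp1 encodes fructose bisphosphatase, which opposes phosphofructokinase (chr13:62864753-62888298). Its arrays read 12.31, 12.52 and 12.66 in Ath+HF+BCAA 68w, 13.28, 13.31 and 13.19 in Ath+HF 68w, 12.96, 13.12 and 12.78 in Ath+HF+BCAA 38w, 13.00, 12.97 and 12.86 in Ath+HF 38w, and 13.28, 13.21 and 13.24 in basal diet 38w. Again the arrays of Ath+HF+BCAA 68w were the lowest and overlapped no other group. The log2 difference was -0.77 from Ath+HF 68w (standard error 0.11, limma adjusted p = 4.07e-05) and -0.75 from basal diet 38w (limma adjusted p = 3.96e-05).

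Pck1 encodes the cytosolic PEP carboxykinase, which turns oxaloacetate into phosphoenolpyruvate (chr2:173153073-173159274). It read 12.40, 12.03 and 12.67 in Ath+HF+BCAA 68w, 13.15, 13.18 and 13.26 in Ath+HF 68w, 12.54, 12.87 and 11.44 in Ath+HF+BCAA 38w, 12.77, 12.86 and 12.72 in Ath+HF 38w, and 12.92, 12.71 and 12.92 in basal diet 38w. The Ath+HF+BCAA 68w arrays lay below those of Ath+HF 68w and of basal diet, but replicate 3 of Ath+HF+BCAA 38w was lower than any of them. Between the 68w groups the log2 difference of Pck1 was -0.83 (standard error 0.255, limma adjusted p = 0.0187). The call was lost without Ath+HF+BCAA 68w replicate 2 (-0.66, limma adjusted p = 0.0943) and without Ath+HF 68w replicate 3 (-0.80, limma adjusted p = 0.0543). It was also lost by analysis of variance, with Bonferroni over the comparisons (adjusted p = 0.205) or Benjamini-Hochberg over genes (adjusted p = 0.0571). Pck1 narrowly missed the study's limits (limma unadjusted p = 0.00511).

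Pcx encodes pyruvate carboxylase, the mitochondrial enzyme that makes oxaloacetate from pyruvate (chr19:4510472-4621752). It varied least of the gluconeogenic genes, with 11.67, 11.70 and 11.83 in Ath+HF+BCAA 68w against 11.97, 11.96 and 12.23 in Ath+HF 68w. The arrays did not overlap, and the difference was -0.32 (standard error 0.10, limma adjusted p = 0.0200). This difference did not reach the study's limits (1.25-fold, limma unadjusted p = 0.00558). After quantile normalization of the deposited values it was -0.19 with a limma adjusted p of 0.166, and it was also not called without Ath+HF 68w replicate 3 (-0.24, limma adjusted p = 0.104), without Ath+HF+BCAA 68w replicate 1 (-0.29, limma adjusted p = 0.0744) or without Ath+HF+BCAA 68w replicate 2 (-0.31, limma adjusted p = 0.0663).

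Hepatocyte markers moved in part with these genes. Between the same groups 5 of 13 were lower and none higher, with a median of -0.10. Fga, a fibrinogen chain, was at -0.70 and Hpd, an enzyme of tyrosine breakdown, at -0.54, while albumin (Alb) was at -0.03 with overlapping arrays. Their part in the lower G6pc, Fbp1, Pck1 and Pcx was not tested.

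The promoters of the 3 gluconeogenic genes with the largest differences between the 68w groups, and that of Hk2, which moved the other way, are shown because they are the stretches from which these transcripts start. Each is the RefSeq sequence of GRCm38.p6 from 250 bases before to 50 bases after the transcript start, and capitals mark matches on either strand to the core promoter motif TATAAA, the GC box GGGCGG, the E-box CACGTG, the cAMP response core TGACG and the FOXO core GTAAACA.
G6pc promoter, chr11:101367466-101367765, plus strand: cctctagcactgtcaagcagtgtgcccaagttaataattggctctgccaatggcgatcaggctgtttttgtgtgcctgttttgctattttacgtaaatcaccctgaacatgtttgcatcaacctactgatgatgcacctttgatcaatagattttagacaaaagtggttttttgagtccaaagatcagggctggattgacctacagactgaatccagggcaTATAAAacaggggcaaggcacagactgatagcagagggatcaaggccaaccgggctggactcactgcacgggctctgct
Pck1 promoter, chr2:173152823-173153122, plus strand: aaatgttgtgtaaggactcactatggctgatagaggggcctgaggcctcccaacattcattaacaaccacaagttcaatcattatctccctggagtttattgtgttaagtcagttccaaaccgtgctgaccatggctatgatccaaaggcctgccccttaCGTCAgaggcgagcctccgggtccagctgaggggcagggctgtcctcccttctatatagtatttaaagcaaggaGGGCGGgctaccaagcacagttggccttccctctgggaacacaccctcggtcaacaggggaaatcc
Fbp1 promoter, chr13:62888233-62888532, minus strand: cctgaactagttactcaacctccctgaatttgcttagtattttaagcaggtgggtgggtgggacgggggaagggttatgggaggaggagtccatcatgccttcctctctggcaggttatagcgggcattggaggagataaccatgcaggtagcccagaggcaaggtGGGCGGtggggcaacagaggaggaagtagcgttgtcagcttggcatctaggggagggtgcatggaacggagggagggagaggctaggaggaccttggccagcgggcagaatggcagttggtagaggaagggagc
Hk2 promoter, chr6:82774405-82774704, minus strand: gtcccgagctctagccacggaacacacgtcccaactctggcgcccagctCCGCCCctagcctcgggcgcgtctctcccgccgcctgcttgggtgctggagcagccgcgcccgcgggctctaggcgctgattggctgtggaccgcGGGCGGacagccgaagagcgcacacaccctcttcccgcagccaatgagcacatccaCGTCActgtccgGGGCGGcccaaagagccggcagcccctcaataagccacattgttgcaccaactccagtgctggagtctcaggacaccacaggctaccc

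G6pc has a TATAAA at bases -29 to -24 from its start, a match found in 13.6% of 32851 promoter windows of the same length. Pklr also has one, at -31 to -26 from the second of its start sites. TGACG, which 20.8% of all windows hold, was present in Pck1 on the minus strand at -90 to -86 and in Hk2 on the minus strand at -50 to -46, and also in Pkm. GGGCGG was in Pck1, Fbp1, Hk2, Pkm, Pfkl and Pcx, and in 35.7% of all windows. CACGTG was found in the Pcx window and in 7.2% of all windows. GTAAACA was in none of the 12 windows of the 9 members and in 3.6% of all windows. Each match is a description of letters only.

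Hk2, the hexokinase with high affinity for glucose (chr6:82725025-82774454), read 7.47, 7.72 and 7.33 in Ath+HF+BCAA 68w, 6.85, 6.89 and 6.95 in Ath+HF 68w, 7.05, 6.94 and 7.35 in Ath+HF+BCAA 38w, 7.23, 7.18 and 7.15 in Ath+HF 38w, and 6.64, 6.91 and 6.60 in basal diet 38w. The Ath+HF+BCAA 68w arrays lay above those of Ath+HF 68w without overlap. Hk2 averaged 7.51 ± 0.19 in Ath+HF+BCAA 68w and 6.90 ± 0.05 in Ath+HF 68w (SD, n = 3 each), a difference of 0.61 (standard error 0.12, limma adjusted p = 0.00111).

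Pkm, the pyruvate kinase of muscle and of most tissues other than liver (chr9:59656576-59679372), read 9.91, 10.04 and 9.52 in Ath+HF+BCAA 68w, 9.12, 9.14 and 9.07 in Ath+HF 68w, 9.16, 8.98 and 9.35 in Ath+HF+BCAA 38w, 9.16, 9.53 and 9.28 in Ath+HF 38w, and 8.40, 8.87 and 8.82 in basal diet 38w. Its arrays of the 68w groups did not overlap, and the difference was 0.71 (standard error 0.15, limma adjusted p = 0.00186). The single value of a cluster cannot separate the M1 and M2 splice forms. A second, not independent Pkm cluster on the array gave at least 9.34 in every array of Ath+HF+BCAA 68w and at most 9.03 in those of Ath+HF 68w.

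Macrophage markers moved with Hk2 and Pkm. Between the 68w groups 16 of 17 were higher and none lower, with a median of 2.47, such as Cybb, a subunit of the phagocyte oxidase (3.45), and Gpnmb, a glycoprotein of lipid-laden macrophages (4.87). Clec4f, a marker of resident Kupffer cells, was not called (0.30). Over the 15 arrays, which share the group differences, the Pearson correlation with the mean macrophage signal was 0.84 for Hk2 and 0.71 for Pkm. After the group means were taken off these were 0.74 and 0.59. The gluconeogenic genes ran opposite to that signal, with -0.87 for Fbp1, -0.81 for Pcx, -0.71 for G6pc and -0.70 for Pck1. Within groups these were -0.425, -0.42, -0.59 and -0.725. Stellate cell and fibroblast (8 of 10 measured, median 1.11), endothelial (7 of 10, median 0.43), cholangiocyte (4 of 5), proliferation (7 of 8) and T and NK cell markers (6 of 9) were also higher between the 68w groups, and none of these markers was lower. The part of these cells in Hk2, Pkm and the gluconeogenic genes was not tested. In Ath+HF 68w Pkm lay above the basal diet arrays (0.41), but this call was lost with array medians set equal (0.23, limma adjusted p = 0.294). The macrophage mean of that group lay below the basal diet arrays, and how these values relate was not tested.

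**Figure D2:**
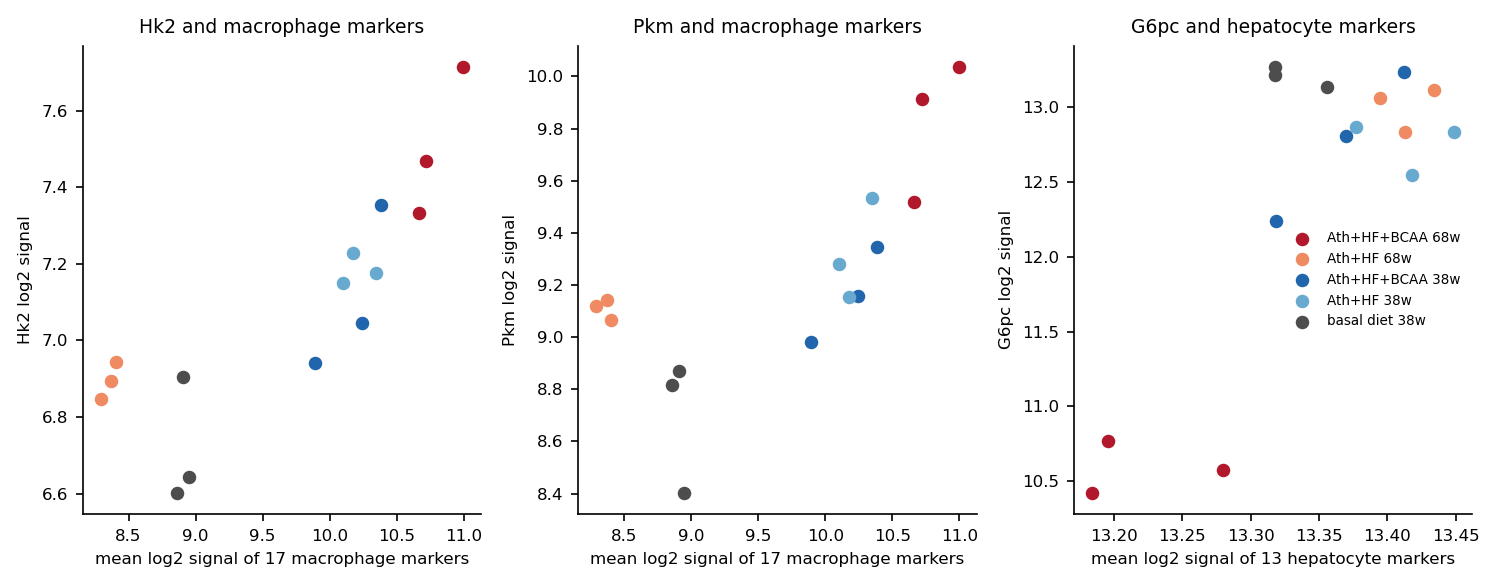
Log2 signal of Hk2 and Pkm against the mean log2 signal of 17 macrophage markers, and of G6pc against that of 13 hepatocyte markers, 1 point per array with colours for the 5 groups. The group means of Hk2 and Pkm were highest in Ath+HF+BCAA 68w, where macrophage markers reached 10.66 to 10.99, though single 38w arrays overlapped that group, and the G6pc signals of 10.42 to 10.77 lay at hepatocyte means of 13.18 to 13.28.

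Pklr, the pyruvate kinase of hepatocytes (chr3:89136122-89146815), was not called between the 68w groups (0.28, 95% interval -0.05 to 0.61), nor was Pfkl, the liver subunit of phosphofructokinase (0.13, interval -0.18 to 0.44). Slc2a2 was at 0.27 with a 95% interval of 0.03 to 0.52 and a limma adjusted p of 0.0758. Its arrays read 11.19, 11.34 and 11.62 in Ath+HF+BCAA 68w and 11.13, 11.08 and 11.11 in Ath+HF 68w, without overlap. It was called higher after quantile normalization (0.34, limma adjusted p = 0.0243), with array weights (0.23, limma adjusted p = 0.0493) and without Ath+HF+BCAA 68w replicate 1 (0.37, limma adjusted p = 0.0318).

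At 38w the comparison of Ath+HF+BCAA with Ath+HF called none of the 9 members. In this comparison limma called 0.00% of all genes higher and 0.00% lower. At an unadjusted p under 0.05 there were 1528 genes, with no member among them, and analysis of variance also called no member. The members' intervals leave room for moderate differences, such as -0.39 to 0.41 for G6pc, -0.33 to 0.19 for Hk2, -0.49 to 0.17 for Pkm and -0.22 to 0.24 for Fbp1. Pck1 was at -0.50 (interval -1.05 to 0.04). Much of its spread came from replicate 3 of Ath+HF+BCAA 38w, whose Pck1 was 11.44 and whose G6pc was 12.24, each the lowest of its group, while its Pklr of 10.92, Pfkl of 9.07 and Hk2 of 7.35 were the highest. Macrophage markers averaged 10.38 in that array, and 10.24 and 9.89 in replicates 1 and 2.

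**Figure D3:**
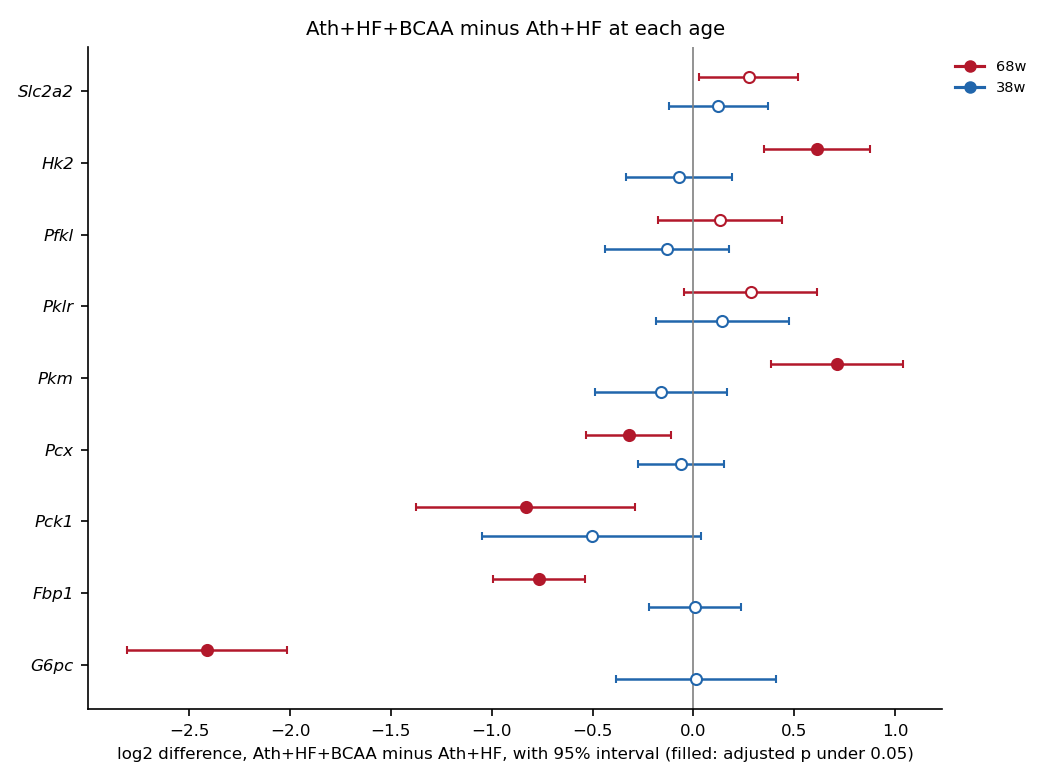
Log2 difference of Ath+HF+BCAA minus Ath+HF (horizontal axis) at 68w in red and at 38w in blue for each of the 9 genes, with the 95% interval from limma. Filled points have an adjusted p under 0.05. The 68w points of G6pc (-2.41), Fbp1 (-0.77), Hk2 (0.61) and Pkm (0.71) stand apart from those of 38w.

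The difference between the BCAA comparisons at 68w and at 38w was itself tested. It was called for 4 members, of which 2 were higher, Hk2 and Pkm, and 2 lower, G6pc and Fbp1. Of all genes 12.9% were called higher and 7.67% lower in this test. The difference was -2.42 for G6pc (standard error 0.26, limma adjusted p = 1.04e-05), and for Pck1 it was -0.33 with an interval of -1.10 to 0.44. Without Ath+HF+BCAA 38w replicate 3, Pck1 was called too (-0.75, limma adjusted p = 0.0197).

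Pklr was lower than in basal diet 38w in every group on the Ath+HF diets. Its signal was 10.60, 10.80 and 10.98 in Ath+HF+BCAA 68w, 10.67, 10.64 and 10.21 in Ath+HF 68w, 10.39, 10.43 and 10.92 in Ath+HF+BCAA 38w and 10.44, 10.30 and 10.58 in Ath+HF 38w, against 11.40, 11.39 and 11.54 in basal diet 38w. The lowest basal diet array lay above the highest of the other 12. The log2 difference from basal diet was -0.65 in Ath+HF+BCAA 68w (limma adjusted p = 0.00298), -0.94 in Ath+HF 68w (limma adjusted p = 3.97e-04), -0.86 in Ath+HF+BCAA 38w (limma adjusted p = 0.00402) and -1.01 in Ath+HF 38w (limma adjusted p = 0.00164), each with a standard error of 0.155. These 4 comparisons share the basal diet arrays and are not independent. The call was kept in all 4 under every alternative tried and without any 1 array.

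In Ath+HF 38w against basal diet 38w, Pklr was the member called lower (1 of 9, where 1.18% of all genes were called lower), and Hk2 and Pkm were called higher (2 of 9, where 3.05% of all genes were). Hk2 was at 0.47 (standard error 0.12, limma adjusted p = 0.0427) and Pkm at 0.63 (standard error 0.15, limma adjusted p = 0.0305), both with arrays that did not overlap. Neither call was firm. With array medians set equal the limma adjusted p was 0.0884 for Hk2 and 0.0619 for Pkm. Both calls were lost after quantile normalization, in a fit of these 2 groups alone, and without basal diet 38w replicate 1, Ath+HF 38w replicate 2 or Ath+HF 38w replicate 3, and that of Hk2 without 7 other arrays in turn as well. Of 17 macrophage markers, 15 were higher in the same comparison, and their part was not tested. Over all genes the calls were 608 higher and 235 lower, with array medians set equal 427 and 436, and after quantile normalization 416 and 299.

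In Ath+HF+BCAA 38w against basal diet 38w, only Pklr was called among the members (1 of 9 lower, where 1.82% of all genes were called lower, and none higher, where 3.67% were). Hk2 was at 0.40 (limma adjusted p = 0.0760) and Pkm at 0.47 (limma adjusted p = 0.0958), with arrays above those of basal diet in both. Without Ath+HF+BCAA 38w replicate 2, the array with the highest G6pc and Pck1 of its group, 4 members were called, with G6pc (-0.68, limma adjusted p = 0.0208) and Pck1 (-0.86, limma adjusted p = 0.0435) lower and Hk2 (0.48, limma adjusted p = 0.0431) higher beside Pklr. Without basal diet 38w replicate 2, Hk2 was called (0.49, limma adjusted p = 0.0490).

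**Figure D4:**
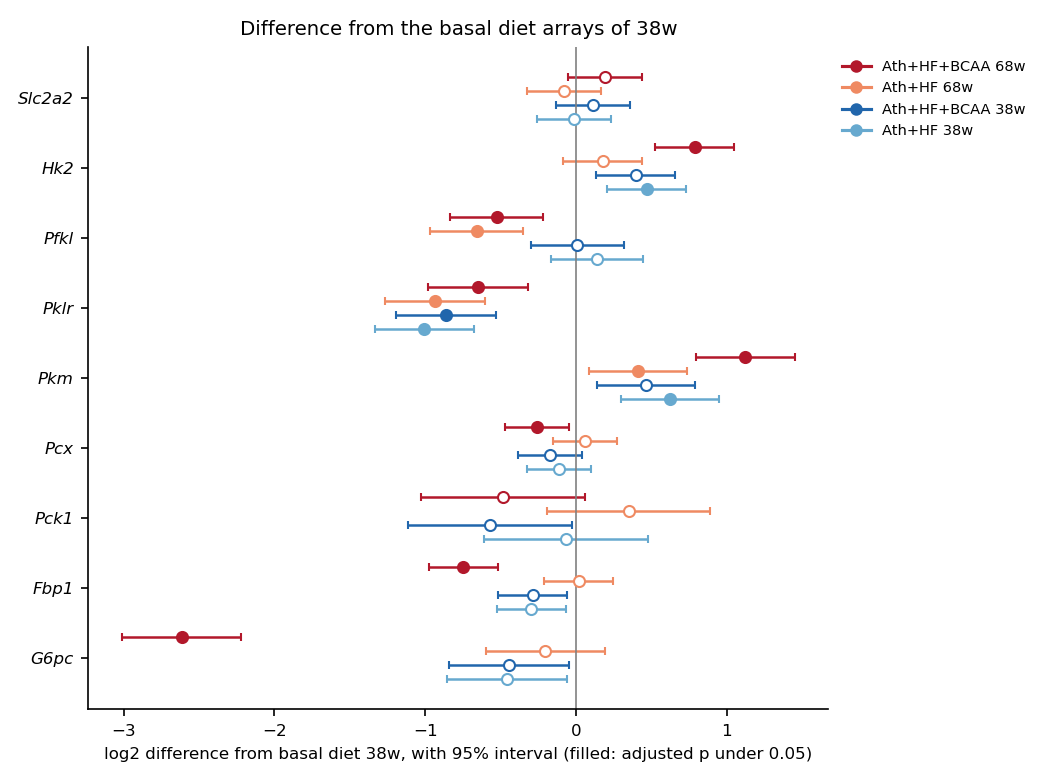
Log2 difference from basal diet 38w (horizontal axis) of the 9 genes in the 4 groups on Ath+HF diets, with the 95% interval from limma, filled where the adjusted p was under 0.05. All 4 Pklr points are filled and lie between -1.01 and -0.65, while Pfkl is filled for the 68w groups alone.

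Against basal diet 38w, 7 members were called in Ath+HF+BCAA 68w and 3 in Ath+HF 68w. In Ath+HF+BCAA 68w Hk2 (0.79) and Pkm (1.13) were higher, where 22.9% of all genes were called higher, and Pklr (-0.65), Pfkl (-0.53), G6pc (-2.62), Fbp1 (-0.75) and Pcx (-0.26) were lower, where 21.8% of all genes were called lower. Pcx was close to the threshold (limma adjusted p = 0.0449) and lost its call after quantile normalization (limma adjusted p = 0.142) and when any 1 of 10 of the 15 arrays was left out, with Ath+HF 68w replicate 3, Ath+HF+BCAA 68w replicate 3, Ath+HF+BCAA 38w replicates 2 and 3 and basal diet 38w replicate 2 as the exceptions. Pck1 was not called there (-0.48, interval -1.03 to 0.06), but it was without Ath+HF+BCAA 38w replicate 3 (limma adjusted p = 0.0111), in a fit of these groups alone (limma adjusted p = 0.0325) and with array medians set equal (-0.67, limma adjusted p = 0.0386). In Ath+HF 68w Pkm was higher (0.41, 1 of 9, where 19.0% of all genes were called higher), and Pklr (-0.94) and Pfkl (-0.66) were lower (2 of 9, where 19.1% of all genes were called lower). The members' shares in Ath+HF 68w were near those of all genes. The median difference from basal diet over the 9 members was -0.48 in Ath+HF+BCAA 68w and 0.02 in Ath+HF 68w, beside 0.01 and 0.05 over all genes. With array medians set equal Pkm in Ath+HF 68w was at 0.23 with a limma adjusted p of 0.294, and its call was also lost without basal diet 38w replicate 1 (0.27, limma adjusted p = 0.201) or any 1 array of Ath+HF 68w (limma adjusted p of 0.0794 to 0.106), and more narrowly without Ath+HF 38w replicate 3, Ath+HF+BCAA 38w replicate 1 or Ath+HF+BCAA 68w replicate 1 (limma adjusted p of 0.0525 to 0.0548).

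Setting array medians equal shifted all comparisons of 68w with 38w downwards. The median over all genes between Ath+HF 68w and basal diet was then -0.14, against 0.05 on the deposited scale, with 1191 genes called higher and 6145 lower, against 3791 and 3812. After quantile normalization these were 2222 and 3991. Between Ath+HF+BCAA 68w and basal diet the median moved to -0.18, against 0.01, and the calls to 2781 and 7057, against 4557 and 4342. The differences of Pklr, Pfkl, G6pc and Fbp1 from basal diet in Ath+HF+BCAA 68w were larger than this shift.

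Pfkl (chr10:77986947-78009807) was lower at 68w than at 38w on both diets. Its signal was 8.16, 8.15 and 8.43 in Ath+HF+BCAA 68w and 8.27, 8.16 and 7.91 in Ath+HF 68w, against 8.76, 8.51 and 9.07 in Ath+HF+BCAA 38w, 8.84, 8.97 and 8.92 in Ath+HF 38w and 8.88, 8.89 and 8.55 in basal diet 38w. All 6 arrays of 68w lay below all 9 of 38w. For the mean of both Ath+HF diets the 68w minus 38w difference was -0.67 (standard error 0.10, limma adjusted p = 9.71e-05), a value that does not depend on which 68w label is which. It was -0.80 for Ath+HF alone (limma adjusted p = 6.80e-04) and -0.54 for Ath+HF+BCAA alone (limma adjusted p = 0.00832).

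In the mean over both diets, G6pc was the other member called at 68w against 38w (-0.96, standard error 0.13, limma adjusted p = 3.75e-05). Of the 9 members 2 were thus lower, where 22.7% of all genes were called lower, and none was higher, where 25.9% were. The share of lower members was near that of all genes. The mean for G6pc joined unlike parts, since Ath+HF+BCAA 68w minus Ath+HF+BCAA 38w was -2.17 (limma adjusted p = 8.14e-07), while Ath+HF 68w minus Ath+HF 38w was 0.25 (interval -0.14 to 0.65). With array medians set equal the calls over all genes were 2175 higher and 6668 lower, against 5161 and 4518, and Fbp1 was then also called lower (-0.21, limma adjusted p = 0.0412).

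In Ath+HF 68w against Ath+HF 38w, Fbp1 was higher (0.32, limma adjusted p = 0.0313, 1 of 9, where 17.6% of all genes were called higher) and Pfkl was lower (1 of 9, where 20.0% were called lower). The Fbp1 call was lost with array medians set equal (0.20, limma adjusted p = 0.187) and after quantile normalization (0.21, limma adjusted p = 0.153), and without Ath+HF 38w replicate 2 or 3 or Ath+HF 68w replicate 1 or 2. Without Ath+HF+BCAA 38w replicate 3, which enters the error shared by all groups, 4 members were called. Hk2 was then lower (-0.29, limma adjusted p = 0.0459) and Pck1 higher (0.42, limma adjusted p = 0.0296) beside Fbp1 and Pfkl. The same 4 were called in a fit of these groups alone. Hk2 was also called lower with array weights, with array medians set equal (-0.41, limma adjusted p = 0.0201) and after quantile normalization (-0.425, limma adjusted p = 0.0160). In the last 2 settings 2 members were lower and 0 higher. In Ath+HF+BCAA 68w against Ath+HF+BCAA 38w, Hk2 (0.39) and Pkm (0.66) were higher, where 20.5% of all genes were called higher, and G6pc (-2.17), Fbp1 (-0.46) and Pfkl (-0.54) were lower, where 18.3% were called lower. The Hk2 arrays of these groups overlapped, and its call was lost with array medians set equal (0.24, limma adjusted p = 0.147) and without Ath+HF+BCAA 68w replicate 2 (0.29, limma adjusted p = 0.109), Ath+HF+BCAA 38w replicate 1 (limma adjusted p = 0.0616) or Ath+HF+BCAA 38w replicate 2 (limma adjusted p = 0.0872). With array medians set equal, the calls over all genes were 1656 higher and 5244 lower between the Ath+HF groups, against 3518 and 3985, and 2272 and 5659 between the Ath+HF+BCAA groups, against 4081 and 3654.

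Slc2a2 (chr3:28697903-28728361) was called in none of the 10 comparisons. Its group means ran from 11.38 ± 0.22 in Ath+HF+BCAA 68w and 11.30 ± 0.12 in Ath+HF+BCAA 38w to 11.19 ± 0.17 in basal diet 38w, 11.18 ± 0.03 in Ath+HF 38w and 11.11 ± 0.03 in Ath+HF 68w (SD, n = 3 each), and no neighbours in that order were called different. Pcx varied nearly as little, and its means ran from 12.06 ± 0.15 in Ath+HF 68w through 12.00 ± 0.10 in basal diet 38w, 11.88 ± 0.07 in Ath+HF 38w and 11.82 ± 0.10 in Ath+HF+BCAA 38w to 11.73 ± 0.09 in Ath+HF+BCAA 68w.

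The members varied together in part. Over the 15 arrays, which share 5 groups, G6pc and Fbp1 had a Pearson correlation of 0.90 and Hk2 and Pkm one of 0.92, and after the group means were taken off these were 0.50 and 0.64. Hk2 and Fbp1 ran opposite (-0.90, and -0.54 within groups). G6pc and Pck1 were closer within groups (0.87) than over all arrays (0.54), and replicate 3 of Ath+HF+BCAA 38w was low for both. These are descriptions without a test.

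For each member the 2 genes with the most similar pattern over the 15 arrays were taken by Pearson correlation. For Pklr these were Nsdhl (0.915) and Fdps (0.899), enzymes of cholesterol synthesis. For G6pc they were Etfdh (0.985), an enzyme of the mitochondrial electron transfer flavoprotein, and Ephx2 (0.984), the soluble epoxide hydrolase. Fbp1 was closest to Pex11a (0.97), a peroxisomal membrane protein, and Cpt2 (0.96), a carnitine palmitoyltransferase. Hk2 was closest to the endosomal DNA receptor Tlr9 (0.96) and the prostaglandin receptor Ptger4 (0.95), and Pkm to Prex1 and Arap1 (both 0.95), regulators of small GTPases. For Pfkl they were Dexi (0.97) and Fkbp9 (0.97), for Pck1 Ano2 (0.93) and Ybey (0.93), for Pcx Phb2 (0.94) and Lrrc28 (0.92), and for Slc2a2 Ift22 (0.86) and Acot11 (0.83). These values hold the group differences. After the group means were taken off, every pair was lower, from 0.60 for Pklr and Fdps to 0.94 for Pfkl and Fkbp9. For G6pc they were then 0.75 with Etfdh and 0.81 with Ephx2.

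The genes around the members were taken from 10 lists. Between the 68w groups, 5 of the 15 other glycolytic enzymes measured were higher and 2 lower, with a median log2 difference of 0.10. Hk3, a hexokinase of myeloid cells, was at 0.96 and Pfkp, the platelet phosphofructokinase, at 0.82, while lactate dehydrogenase Ldha was at -1.20 and phosphoglycerate kinase Pgk1 at -0.37. Pfkfb3 (1.09) and Pfkfb4 (0.92), bifunctional enzymes that set the level of the fructose bisphosphate that activates phosphofructokinase, were higher, and the other 3 of the 5 regulators measured were not called. Some other genes of these lists were not analysed here.

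Of the 13 other gluconeogenic enzymes and carriers measured, 4 were lower and 1 higher, with a median of -0.17. The dicarboxylate carrier Slc25a10 was at -0.68, the mitochondrial aspartate aminotransferase Got2 at -0.36 and the muscle fructose bisphosphatase Fbp2 at -0.50, while G6pc3, the widely expressed glucose-6-phosphatase, was at 0.45 and so ran opposite to G6pc. Of the 14 genes of pyruvate entry and the pyruvate dehydrogenase complex, 6 were lower and 2 higher. Pdk4, a kinase that inhibits the complex, averaged 8.27 in Ath+HF+BCAA 68w and 11.59 in Ath+HF 68w, a difference of -3.32 (standard error 0.38, limma adjusted p = 5.98e-06). Slc16a1, a carrier of lactate and pyruvate, was at -2.12, while Pdk3 (1.24) and the phosphatase Pdp1 (0.68) were higher. The glycerol phosphate dehydrogenases Gpd1 (-1.35) and Gpd2 (-1.39) and the glycerol channel Aqp9 (-0.36) were lower, 3 of the 5 genes of fructose and glycerol entry.

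**Figure D5:**
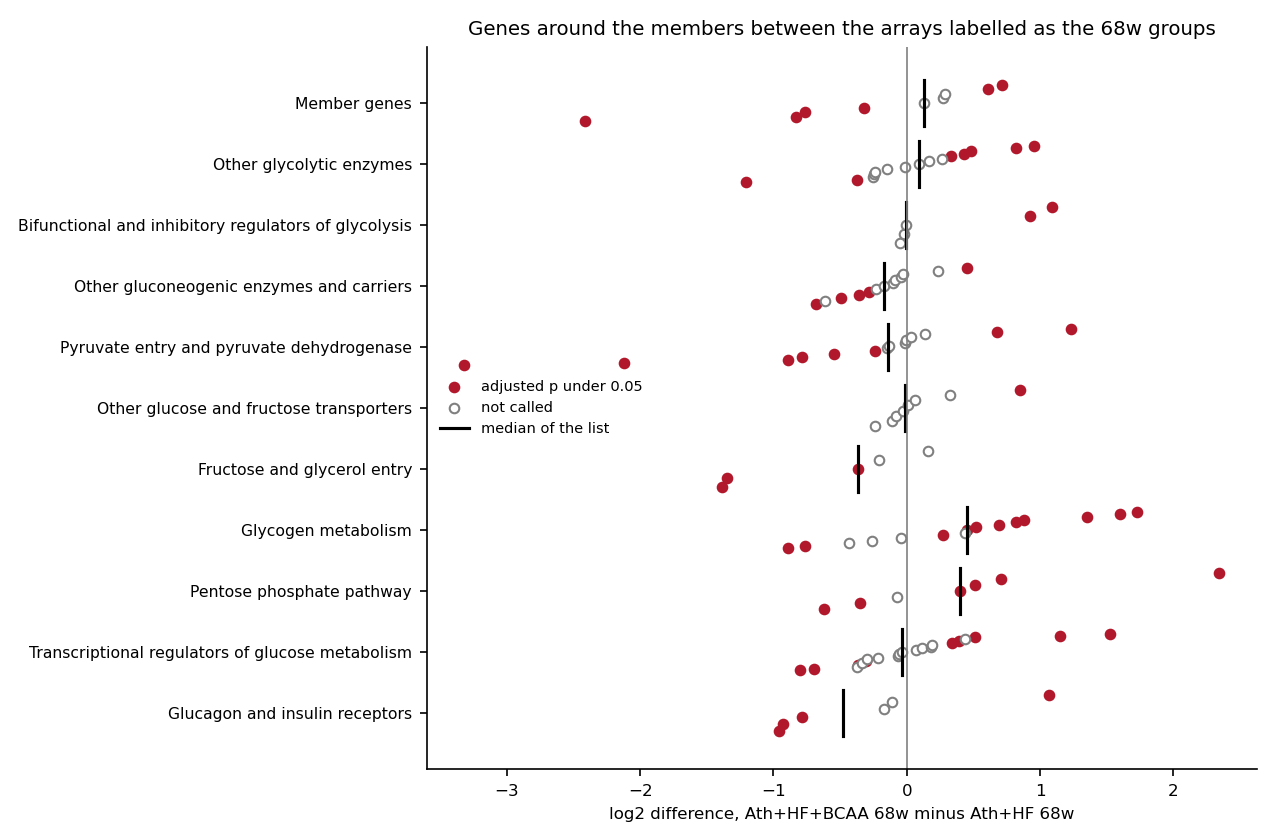
Log2 difference of Ath+HF+BCAA 68w minus Ath+HF 68w (horizontal axis) for each gene of 10 lists and for the 9 members, with a row for each list. Filled points have an adjusted p under 0.05 and the black bar is the median of the list. The 9 members run between -2.41 and 0.71, and Pdk4 lies at -3.32.

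Of the 15 genes of glycogen metabolism, 9 were higher and 2 lower, with a median of 0.45. They included the brain glycogen phosphorylase Pygb (1.73), the branching enzyme Gbe1 (1.60), glycogenin Gyg (1.36) and the phosphorylase kinase subunit Phka2 (0.82). Of the 7 genes of the pentose phosphate pathway, 4 were higher and 2 lower. Pgd, the phosphogluconate dehydrogenase, averaged 11.57 in Ath+HF+BCAA 68w and 9.22 in Ath+HF 68w (difference 2.35, limma adjusted p = 9.50e-09), transketolase Tkt was at 0.71 and transaldolase Taldo1 at 0.51, and the lactonase Pgls was at -0.62. Of 8 other glucose and fructose transporters 1 was called, Slc2a1, the transporter of most tissues outside liver (0.85).

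Genes that govern the members were mixed. Of 6 receptor genes and their partners 3 were lower and 1 higher. The glucagon receptor Gcgr was at -0.93 (standard error 0.09, limma adjusted p = 9.80e-07), the insulin receptor substrates Irs1 and Irs2 at -0.78 and -0.96, and the receptor Igf1r at 1.07. Of 21 transcriptional regulators 5 were higher and 4 lower, with a median of -0.03. Creb3l3 (-0.80) and Cebpa (-0.70), liver transcription factors, were lower, while the glucocorticoid receptor Nr3c1 (0.51) and the lipogenic factor Srebf1 (1.53) were higher. Of all genes 19.8% were called higher and 16.4% lower in this comparison, and none of these lists was tested as a set.

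For the mean of both diets at 68w against 38w, which does not depend on the label of each 68w group, pyruvate dehydrogenase genes were lower beside Pfkl. Of 14 genes of that list 8 were lower and 1 higher, with Dld at -0.88, Pdha1 at -0.78 and Pdhb at -0.76, all subunits of the complex, and its kinase Pdk2 at 0.42. All 5 genes of fructose and glycerol entry were lower, including the ketohexokinase Khk (-0.67) and Gpd1 (-0.73). Of 13 other gluconeogenic enzymes and carriers 5 were higher and 1 lower, with G6pc3 at 0.998 and the malate dehydrogenase Mdh2 at 0.73. Of 15 other glycolytic enzymes 3 were higher and 3 lower, such as aldolase Aldoa (0.55), Pgk1 (-0.64) and the bisphosphoglycerate mutase Bpgm (-0.43). In this comparison 25.9% of all genes were called higher and 22.7% lower.

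At 38w few genes around the members differed from basal diet. In Ath+HF 38w, Pfkfb3 (0.85), Pfkp (0.58), Hk3 (0.62) and Igf1r (1.13) were higher, and the brain aldolase Aldoc (-0.84), Gpd1 (-0.55) and Slc25a10 (-0.59) were lower. In Ath+HF+BCAA 38w, Pfkfb3 (0.62), Pfkp (0.69), Igf1r (0.83), Gyg (0.61) and the pyruvate dehydrogenase phosphatase Pdp1 (0.435) were higher. Pdk4 (-1.99, limma adjusted p = 0.00650) and Pdk1 (-0.73), both pyruvate dehydrogenase kinases, Gpd1 (-0.50), Gpd2 (-0.59), Slc25a10 (-0.66) and Ppp1r3b (-0.68), a glycogen-targeting phosphatase subunit, were lower. None of the 21 transcriptional regulators was called in either comparison. Few genes were called in all, with 3.05% higher and 1.18% lower in Ath+HF 38w, and 3.67% and 1.82% in Ath+HF+BCAA 38w.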

How the data were processed

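The authors made the values with RMA, which corrects background, normalizes by quantiles and joins the probes of a cluster, in Affymetrix Expression Console (no version stated), and deposited 1 table of log2 values for 35556 transcript clusters and 15 arrays. Clusters were named through the platform annotation. Of them 21789 carry 1 symbol, 1621 carry several and 12146 are unnamed here, and only those with 1 symbol were used. Where a gene had several clusters, the brightest was kept, which gave 19938 genes. Samples were grouped by their labels.

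The deposited log2 values were fitted with lmFit and eBayes of limma 3.58.1 in R 4.3.3, with a coefficient for each group and 10 residual degrees of freedom. From this fit 10 comparisons were drawn, with Benjamini-Hochberg adjustment over all genes and no filter on dim genes. The fit was tested on simulated data. The number of arrays limits the precision. The genes named are the 9 members, the 2 genes most like each member by Pearson correlation, at most 4 called genes per list with the smallest p, and up to 3 markers per cell type. Members and lists were chosen with earlier results of these data known. Alternatives were equal array medians, quantile normalization, the mean over a gene's clusters, leaving out genes with a mean log2 value under 6, array weights, fitting only the compared groups, a robust fit with a mean-variance trend, the replicate number as a block, analysis of variance as in the methods, the study's limits (a fold over 1.5 and P under 0.005), and leaving out each array in turn. Promoter sequences are from RefSeq (GRCm38.p6) and were matched for all 9 members.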

Additional observations from a re-analysis of the deposited data

Results flagged for a closer look

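The difference between the BCAA comparisons of 68w and 38w passed the test for 4 of the 9 genes. The contrast of Ath+HF+BCAA 68w minus Ath+HF 68w, less that of Ath+HF+BCAA 38w minus Ath+HF 38w, was -2.42 for G6pc (standard error 0.26, limma adjusted p = 1.04e-05) and -0.78 for Fbp1 (standard error 0.15, limma adjusted p = 0.00172). It was 0.87 for Pkm (standard error 0.22, limma adjusted p = 0.00917) and 0.68 for Hk2 (standard error 0.17, limma adjusted p = 0.0107). In each of these genes all 3 arrays labelled Ath+HF+BCAA 68w lay on the same side of all 3 labelled Ath+HF 68w. The arrays of the 38w groups overlapped. Pck1, Pcx and Slc2a2 showed the same pattern without passing the test. As the test used these same arrays, the pattern is no separate support for it. The sign of each value rests on the labels of the 68w arrays. Of the 17 macrophage markers, 16 were also called higher in this test.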

How the results depend on the processing

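With all arrays kept, the number of members called moved by more than 1.5 times in 3 comparisons. For Ath+HF 38w against basal diet 38w it was 3 in the reported fit and 1 with array medians set equal, after quantile normalization, in the fit of these groups alone and by analysis of variance with Benjamini-Hochberg adjustment. For Ath+HF 68w against Ath+HF 38w it was 2, and 4 in the fit of these groups alone, 1 by analysis of variance with Bonferroni and 1 at the study's limits. For Ath+HF+BCAA 68w against Ath+HF+BCAA 38w it was 5, and 3 by analysis of variance with Bonferroni and 2 at the study's limits. When each array was left out in turn, the count ran between 1 and 3 for Ath+HF 38w against basal diet 38w, 1 and 4 for Ath+HF+BCAA 38w against basal diet 38w, 1 and 4 for Ath+HF 68w against Ath+HF 38w, 4 and 5 for Ath+HF+BCAA 68w against Ath+HF+BCAA 38w, and 4 and 6 between the 68w groups. Over the 9 genes, 10 comparisons and 11 settings, 920 of 990 values kept direction and call, 38 lost the call, 14 gained it and 18 changed sign, none of the last called in either fit.

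Same-numbered arrays of different groups had correlations of their deviations between -0.16 and 0.18, and arrays of unlike number between -0.19 and 0.20. Between basal diet 38w and Ath+HF 38w, same-numbered arrays had 0.17, 0.17 and 0.06, and those of unlike number -0.14 to -0.02. Such ranges cannot decide whether the replicate numbers pair the arrays. With the replicate block 2 members were called for Ath+HF 38w against basal diet 38w, against 3 without it, as Hk2 missed the threshold (limma adjusted p = 0.0623), and no other call changed. All 9 members averaged above the limit of 6 used for dim genes. The cause of the changes was not tested.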
